A study of Arabidopsis with 12 samples.

Results

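The response of coi1-2 seedlings to methyl jasmonate (MeJA) was measured on 4 of the 12 arrays of the study, chosen by genotype and treatment: 2 of coi1-2 seedlings given 100 µM MeJA and 2 of coi1-2 seedlings given the ethanol mock. RNA came from whole seedlings, 7 days old and in the Columbia background, taken 4 h after treatment and hybridised to Affymetrix ATH1 arrays, which measure transcripts with sets of short probes. For comparison, the same treatments had been given to the wild type, Col-0 (MeJA, 2 arrays; mock, 2 arrays), and to the double mutant ein3 eil1, which carries lesions in a pair of ethylene transcription factors (MeJA, 2 arrays; mock, 2 arrays). The study asked how much of the jasmonate response needs COI1 or the EIN3 and EIL1 factors. The labels call coi1-2 a coi1 mutant and do not state whether the allele leaves receptor activity, how mutant seedlings were selected, or how many seedlings made up a sample, so each genotype is 1 line.

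Jasmonates are fatty acid-derived hormones of wounding, defence and root growth. MeJA is taken up, hydrolysed to jasmonic acid and joined to isoleucine. This conjugate holds together COI1, an F-box protein, and a JAZ repressor, which is then degraded, so that MYC factors can act on their targets. Without COI1 the JAZ proteins persist. Separately from that receptor, genes for detoxification enzymes such as glutathione S-transferases and UDP-glycosyltransferases are known to answer oxylipins and other reactive compounds.

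The 2 coi1-2 MeJA arrays correlated with each other at 0.9961 and the 2 coi1-2 mock arrays at 0.9934, over 22588 features. A feature was a gene, or a probe set that had no single gene name, and values were log2 expression. Array medians lay between 5.22 and 5.39 over the 12 arrays. EIN3, which checks one of the other genotypes, was at 6.03, 5.91, 5.95 and 6.25 in ein3 eil1 and at 9.26 or above on all 8 remaining arrays. COI1 and EIL1 were not analysed here, so the coi1-2 label was not checked on its own transcript. The shoot marker RCA, the Rubisco activase of leaves, was at 12.61 and 12.68 in coi1-2 MeJA and 12.50 and 12.62 in coi1-2 mock, so leaf RNA was plentiful in both.

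MeJA changed 578 of the 22588 features in coi1-2 (2.56% of those tested, limma adjusted p under 0.05). Of these, 350 were higher after MeJA (1.55%) and 228 were lower (1.01%). The rises were at least 2-fold for 157 features and at least 4-fold for 25, and the falls for 92 and 8. Their median log2 changes were 0.95 and -0.91, against -0.0025 over all features. Probe sets without a single gene name held the top of the list: 4 of them rose more than every named gene, the largest by 3.15. Gene names were available for 144 of the features that rose and 116 of those that fell.

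The number of calls depended on each of the 4 coi1-2 arrays, and on arrays of the other genotypes through the spread shared in the fit. With the 4 coi1-2 arrays fitted alone, 725 features were called. The counts that follow come from the 12-array fit with 1 array removed. Without coi1-2 MeJA replicate 1 the count was 239, without coi1-2 MeJA replicate 2 it was 311, and without coi1-2 mock replicate 1 or 2 it was 318 or 344. Those refits had 1 array in a group, and from 233 to 301 of the 578 features were called again, none with its sign changed.

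The same features mostly moved in Col-0 when they rose, and less completely when they fell. Of the 350 features that rose in coi1-2, 271 also rose in Col-0, where 1029 features rose (4.56% of those tested). These shared features were 77.4% of the coi1-2 list and 26.3% of the Col-0 list, and 6 of the 350 fell in Col-0. Of the 228 that fell in coi1-2, 92 also fell in Col-0, where 693 fell (3.07%), and the overlap was 40.4% of the coi1-2 list and 13.3% of the Col-0 list. In ein3 eil1, 167 of the 350 rose as well, which was 47.7% of the coi1-2 list and 44.1% of the 379 features that rose in that genotype (1.68% of those tested). Of the 228, 85 fell in ein3 eil1, or 37.3% of the coi1-2 list and 14.4% of the 590 features that fell there (2.61%). All 3 genotypes shared 146 rises and 54 falls. Neither other genotype passed the threshold for 58 rises and 105 falls, which does not show that their responses differed.

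**Figure D1:**
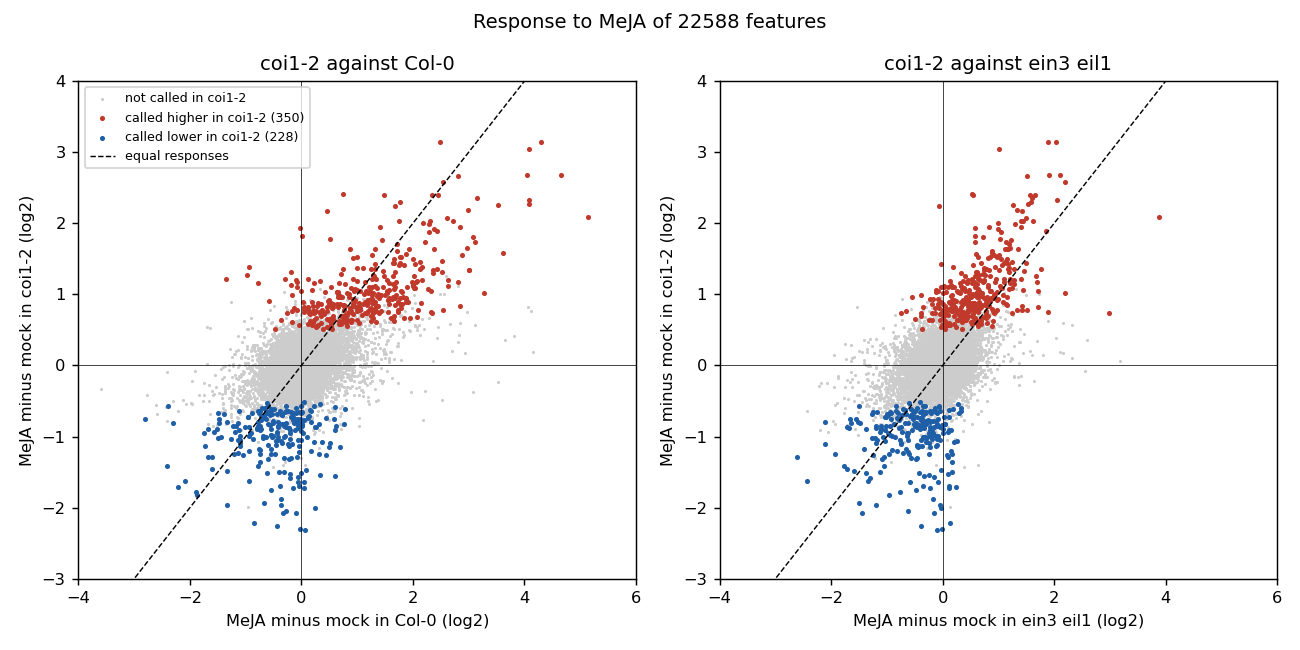
Response to MeJA (MeJA minus mock, log2) of each of 22588 features in coi1-2 on the vertical axis, against Col-0 (left) and ein3 eil1 (right) on the horizontal axis; red points are the 350 features called higher in coi1-2, blue points the 228 called lower, grey points the rest, and the dashed line marks equal responses. Most red points lie right of 0 in both panels, whereas many blue points in the left panel stand near 0 in Col-0.

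The difference between responses was tested in the same limma fit. The coi1-2 response differed from that of Col-0 in 264 features (1.17%) and from that of ein3 eil1 in 100 (0.443%). Among the 350 features that rose in coi1-2, the response was larger than in Col-0 in 21 and smaller in 24. Their median log2 change was 0.95 in coi1-2 and 1.19 in Col-0. Among the 228 that fell in coi1-2, the response was more negative than in Col-0 in 47 (over all features, 0.784% were called below 0) and less negative in 3 (0.385% above 0), and the median change was -0.91 in coi1-2 and -0.43 in Col-0. Features called in coi1-2 were picked for their change on arrays that enter this difference too, so these medians are descriptions. How far low levels in Col-0 limited the falls there was not tested. Without coi1-2 MeJA replicate 2 the difference to Col-0 was called in 107 features, and without coi1-2 MeJA replicate 1 the difference to ein3 eil1 was called in 16.

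Of the 12 named genes with the largest rises, 4 encode UDP-glycosyltransferases or glutathione S-transferases. UGT76E12, a UDP-glycosyltransferase (an enzyme that attaches sugars to small molecules), was at 7.71 and 7.51 in coi1-2 MeJA, against 4.63 and 5.25 in coi1-2 mock. Both treated arrays stood more than 2 log2 units above the mock arrays, a rise of 2.67 ± 0.27 (SE, n = 2 and 2), or 6.38-fold, with a limma adjusted p of 0.000156. In Col-0 the same gene was at 9.75 and 9.43 after MeJA and 5.36 and 4.52 after mock, so the mock levels of the 2 genotypes overlapped while the treated levels did not. The coi1-2 response was smaller, with a difference of -1.98 ± 0.38 (limma adjusted p = 0.0246), a call lost when any 1 of 6 arrays was left out (up to adjusted p = 0.133 without coi1-2 MeJA replicate 2, range over alternatives 0.00511 to 0.133).

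GSTU25, a tau glutathione S-transferase, had a response of nearly equal size in both genotypes. Its levels were 8.37 and 8.22 in coi1-2 MeJA, against 5.90 and 5.54 in coi1-2 mock. The Col-0 levels were 7.53 and 7.44 after MeJA and 5.03 and 4.87 after mock. The groups were apart in each genotype, with rises of 2.58 ± 0.25 in coi1-2 (limma adjusted p = 0.000135) and 2.54 in Col-0. The difference between these responses was 0.04 ± 0.35.

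UGT73B4, whose product is known to glycosylate phenolics and trinitrotoluene breakdown products, was at 8.28 and 8.13 in coi1-2 MeJA, against 5.91 and 6.12 in coi1-2 mock. Its neighbour and relative UGT73B5 was at 8.70 and 8.28 in coi1-2 MeJA, against 6.48 and 6.75 in coi1-2 mock. In both genes all coi1-2 values exceeded the Col-0 values under the same treatment, which reached 7.44 (MeJA) and 4.48 (mock) for UGT73B4. The rises in coi1-2 were 2.19 ± 0.25 and 1.88 ± 0.23 (limma adjusted p = 0.00037 and 0.000598). OCT5, an organic cation and carnitine transporter, was at 8.05 and 7.89 in coi1-2 MeJA, against 5.76 and 6.14 in coi1-2 mock. Its rise of 2.03 ± 0.16 was 4.08-fold (limma adjusted p = 2.03e-05), and the coi1-2 and Col-0 responses differed by -0.28 ± 0.22.

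SUFE2, a plastid protein that activates cysteine desulfurase for iron-sulfur cluster assembly, was at 10.01 and 10.02 in coi1-2 MeJA, against 8.15 and 8.10 in coi1-2 mock. The replicates lay close together and far from the other group, and the rise was 1.89 ± 0.16 (limma adjusted p = 5.28e-05). UGT76E11 rose by 1.92 ± 0.21. BCAT4 is described with the glucosinolate genes. Of the same 12 genes, 5 are known here by locus code only. AT3G23550 rose by 2.66, AT5G14730 by 2.39, AT1G14130 by 2.01 and AT2G43550 by 1.94. AT5G16980 rose by 2.39, a call that was lost without coi1-2 MeJA replicate 1 (limma adjusted p = 0.0761, range over alternatives 3e-04 to 0.0761). AT2G43550 stood apart in level: it was at 7.46 and 6.94 in coi1-2 MeJA and 5.2 and 5.31 in coi1-2 mock, against 9.83 and 9.61 in Col-0 MeJA and 7.04 and 6.73 in Col-0 mock.

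**Figure D2:**
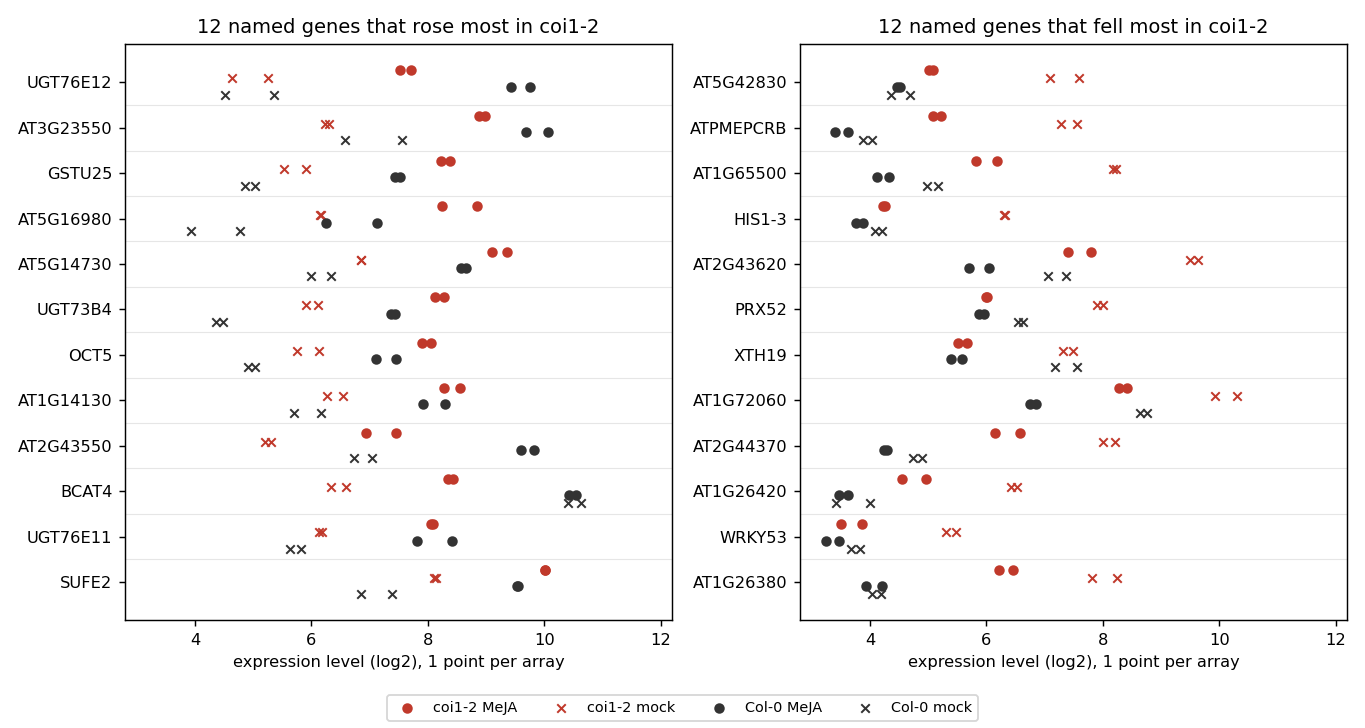
Expression level (log2) on each array of the 12 named genes with the largest rise (left) and the largest fall (right) in coi1-2; filled circles are MeJA arrays and crosses mock arrays, red for coi1-2 and dark grey for Col-0. On the left both genotypes shift up with MeJA except BCAT4 in Col-0; on the right the coi1-2 mock crosses stand apart from the other values for most genes.

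The list of electrophile and xenobiotic response genes, enzymes that conjugate, reduce or export reactive compounds, had 10 measured members of 27. Of these 8 rose in coi1-2, 0 fell and 2 did not pass, where 1.55% of all features rose and 1.01% fell. The median change was 1.13 in coi1-2 and 1.91 in Col-0, against -0.0025 over all features in coi1-2, and 8 rose in Col-0 too, where 4.56% of all features did. Besides GSTU25, UGT73B4 and UGT73B5, the genes that rose were GSTU22, AT5G61820, GSTU26, AER and AT1G60730. AER, an alkenal reductase that removes reactive carbonyls, was at 11.51 and 11.05 in coi1-2 MeJA, against 10.38 and 10.40 in coi1-2 mock, a rise of 0.89 ± 0.16 (limma adjusted p = 0.0094). ALDH7B4, an aldehyde dehydrogenase, did not pass, with 12.03 and 11.69 in coi1-2 MeJA and 11.73 and 11.51 in coi1-2 mock. The count of 8 fell to 4 without coi1-2 MeJA replicate 1 and to 5 without coi1-2 mock replicate 1. The list was chosen with earlier results of these data known, so its count is no independent evidence.

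Within the glutathione S-transferases, which join glutathione to electrophiles, 4 of 14 measured members rose in coi1-2 and 0 fell (1.55% and 1.01% over all features), and all 4 are of the tau class. GSTU22 was at 9.08 and 8.84 in coi1-2 MeJA, against 7.13 and 7.53 in coi1-2 mock, a rise of 1.63 ± 0.28 (limma adjusted p = 0.00629). GSTU26 was at 7.83 and 7.48 in coi1-2 MeJA, against 6.42 and 6.80 in coi1-2 mock, a rise of 1.05 ± 0.19 (limma adjusted p = 0.0103). GSTU26 showed a smaller response than in Col-0, with a difference of -1.27 ± 0.27 (limma adjusted p = 0.0466), which was lost in 10 of 21 alternatives, among them the replicate block (adjusted p = 0.0587) and 9 arrays left out singly (up to 0.233 without coi1-2 MeJA replicate 2, range over alternatives 0.0109 to 0.233). GSTU27, of the same class, did not pass and was at 8.59 and 8.33 in coi1-2 MeJA and 8.75 and 8.10 in coi1-2 mock, so its groups overlapped. Without coi1-2 MeJA replicate 1 or coi1-2 mock replicate 1, the calls of GSTU22 and GSTU26 were lost and the family's count was 2.

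Of the UDP-glycosyltransferases, 12 of 51 measured members rose in coi1-2 and 0 fell, against 1.55% and 1.01% of all features. Apart from UGT76E12, UGT73B4, UGT76E11 and UGT73B5, the rises lay between 0.76 (UGT73C7) and 1.38 (UGT74D1). UGT74D1, which glycosylates the auxin catabolite oxindole acetic acid, was at 9.26 and 9.29 in coi1-2 MeJA, against 7.96 and 7.83 in coi1-2 mock (rise 1.38 ± 0.21, limma adjusted p = 0.00281). UGT73C1, which takes cytokinins among other substrates, was at 5.97 and 5.63 in coi1-2 MeJA, against 4.65 and 4.30 in coi1-2 mock (rise 1.33 ± 0.19, limma adjusted p = 0.00195). The family median was 0.32 in coi1-2 and 0.06 in Col-0, where 15 members rose (4.56% of all features). Responses of 2 members differed from those in Col-0. UGT76E12 had a smaller response, and UGT72E1, named after its values were seen, had a difference above 0, with changes of 0.17 in coi1-2, which did not pass, and -1.19 in Col-0. UGT88A1 was nearly level, at 9.79 and 9.75 in coi1-2 MeJA and 9.67 and 9.79 in coi1-2 mock. Without coi1-2 MeJA replicate 1 the family's count was 6, without coi1-2 MeJA replicate 2 or coi1-2 mock replicate 1 it was 7. Of the 20 measured cytochromes P450, the oxidases that often act beside these enzymes, CYP71B22 alone passed, with a rise of 0.82 ± 0.15 (limma adjusted p = 0.00914) that was lost without coi1-2 MeJA replicate 1 (adjusted p = 0.124, range over alternatives 0.00397 to 0.124). It was also lost without coi1-2 mock replicate 2.

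Genes for jasmonate breakdown, enzymes that oxidise, hydrolyse or otherwise inactivate the hormone, rose in coi1-2 in 3 of 5 measured members of 11, where 1.55% of all features rose. JRG21, a jasmonate-regulated oxidase of jasmonic acid, was at 9.01 and 8.85 in coi1-2 MeJA, against 7.18 and 7.06 in coi1-2 mock. Both treated arrays of coi1-2 stayed below the Col-0 arrays at 12.05 and 11.85 (MeJA), and only 1 Col-0 mock array, at 8.23, lay below them, the other being at 9.52. The rise was 1.81 ± 0.29 (limma adjusted p = 0.00397), or 3.51-fold. AT5G05600, listed by locus code, was at 11.02 on both coi1-2 MeJA arrays, against 9.63 and 9.37 in coi1-2 mock, a rise of 1.52 ± 0.18 (limma adjusted p = 0.000426). Its coi1-2 and Col-0 responses differed by -0.24 ± 0.25.

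AT2G38240, another locus of the breakdown list, was at 9.67 and 9.25 in coi1-2 MeJA, against 8.21 and 8.03 in coi1-2 mock, a rise of 1.34 ± 0.22 (limma adjusted p = 0.00412). This response was smaller than that of Col-0, with a difference of -1.67 ± 0.30 (limma adjusted p = 0.0199), a call lost when any 1 of 6 arrays was left out (up to adjusted p = 0.121 without coi1-2 MeJA replicate 2, range over alternatives 0.00252 to 0.121). The list's median was 1.34 in coi1-2, 1.76 in Col-0 and 0.63 in ein3 eil1. Without coi1-2 MeJA replicate 1 the calls of JRG21 (limma adjusted p = 0.0598, range over alternatives 3.83e-05 to 0.0598) and AT2G38240 (0.0782, range 0.000309 to 0.0782) were lost and 1 of the list rose. JMT, the methyltransferase that makes MeJA, was near the bottom of the scale, at 3.58 and 3.72 in coi1-2 MeJA and 3.54 and 3.61 in coi1-2 mock.

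None of the 5 measured classical jasmonate response genes, of 14 listed, passed the threshold in coi1-2 (limma, all 12 arrays; 2617 of all features had an unadjusted p under 0.05). Their median change was 0.35 in coi1-2 and 2.19 in Col-0, where 3 rose. AT4G17470 was at 4.64 and 4.29 in coi1-2 MeJA, against 3.92 and 4.31 in coi1-2 mock, so the groups overlapped. In Col-0 it was at 8.52 and 8.67 after MeJA and 5.12 and 4.76 after mock. The coi1-2 response was smaller, with a difference of -3.3 ± 0.28 to Col-0 (limma adjusted p = 0.000264) and of -2.24 ± 0.28 to ein3 eil1 (limma adjusted p = 0.00618). AT1G10585 was at 6.73 and 6.36 in coi1-2 MeJA, against 5.54 and 5.89 in coi1-2 mock. That change of 0.83 ± 0.30 did not pass (limma adjusted p = 0.262), though it did in 3 of 21 alternatives, and it was smaller than in Col-0, with a difference of -3.23 ± 0.43 (limma adjusted p = 0.00294).

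OPCL1, a ligase that activates jasmonate precursors in the peroxisome and the single measured gene of jasmonate synthesis, was at 7.23 and 7.17 in coi1-2 MeJA, against 7.07 and 6.84 in coi1-2 mock. Its change of 0.25 ± 0.14 did not pass (limma adjusted p = 0.601) and was smaller than in Col-0, with a difference of -1.08 ± 0.20 (limma adjusted p = 0.0231). That call was lost when any 1 of 6 arrays was left out (up to adjusted p = 0.124 without coi1-2 MeJA replicate 2, range over alternatives 0.011 to 0.124). The MYC factors that act below COI1 changed by 0.09 ± 0.12 (MYC3) and 0.12 ± 0.17 (MYC4) in coi1-2 and passed no threshold. Of the ethylene and ERF branch 0 of 3 measured genes changed, and the defensin PDF1.2b was at 4.41 and 4.76 in coi1-2 MeJA and 4.27 and 3.88 in coi1-2 mock.

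**Figure D3:**
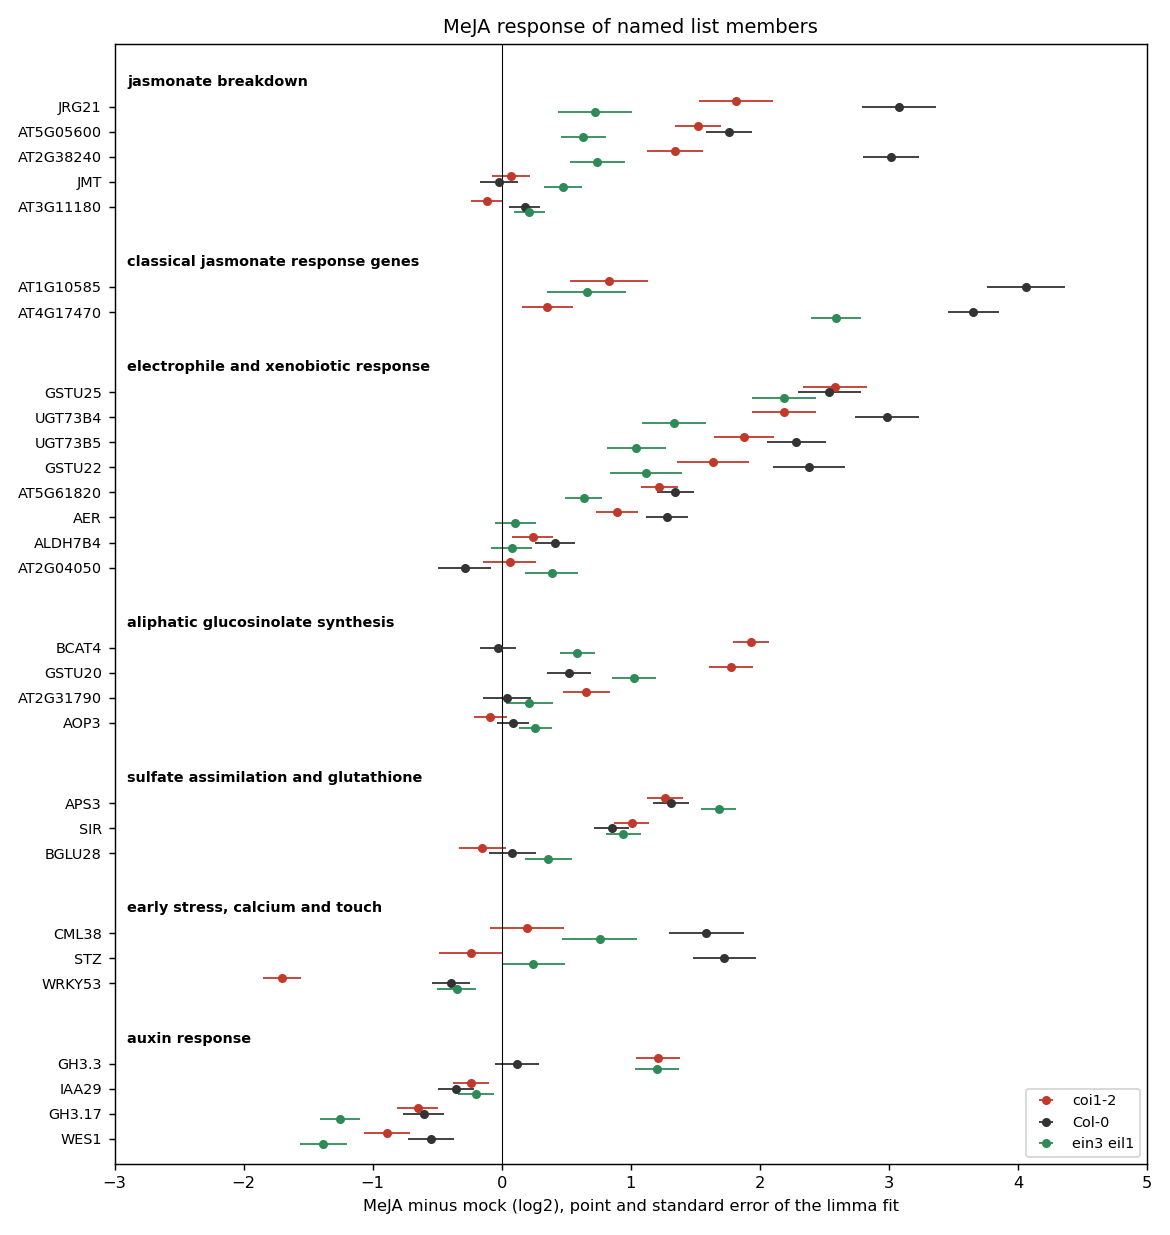
MeJA response (MeJA minus mock, log2) of named members of 7 gene lists in coi1-2 (red), Col-0 (dark grey) and ein3 eil1 (green). Each point compares 2 arrays with 2, and its standard error comes from the limma fit of all 12 arrays, whose spread all groups share. The classical jasmonate response genes shown, AT1G10585 and AT4G17470, stand far to the right in Col-0 (4.06 and 3.65) and further left in coi1-2 (0.83 and 0.35). GSTU25, APS3 and SIR lie together in coi1-2 and Col-0. BCAT4 and GSTU20 each lie further right in coi1-2 than in the other genotypes, and both also passed as rises in ein3 eil1.

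Aliphatic glucosinolate genes make the methionine-derived mustard oil precursors of Arabidopsis, and 4 of 29 were measured. In coi1-2, 2 of these rose and 0 fell (1.55% and 1.01% over all features). BCAT4, the aminotransferase that starts methionine chain elongation, was at 8.35 and 8.44 in coi1-2 MeJA, against 6.33 and 6.59 in coi1-2 mock. In Col-0 it was at 10.42 and 10.54 after MeJA and 10.40 and 10.62 after mock, above every coi1-2 array and without a gap between treatments. The coi1-2 rise was 1.93 ± 0.14, or 3.81-fold (limma adjusted p = 1.25e-05). It was larger than the Col-0 response by 1.96 ± 0.20 (limma adjusted p = 0.000554), and larger than the ein3 eil1 response by 1.34 ± 0.20 (limma adjusted p = 0.0109). BCAT4 rose in ein3 eil1 too, by 0.59 ± 0.14 (limma adjusted p = 0.0337). The difference to ein3 eil1 was lost when any 1 of 4 arrays was left out (up to adjusted p = 0.0647 without coi1-2 MeJA replicate 2, range over alternatives 0.00171 to 0.0647).

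GSTU20, a glutathione S-transferase placed in the same pathway, was at 8.46 and 8.41 in coi1-2 MeJA, against 6.83 and 6.49 in coi1-2 mock. Its Col-0 levels were 9.24 and 9.75 after MeJA and 8.87 and 9.08 after mock. As with BCAT4, no coi1-2 array reached the Col-0 range, and MeJA narrowed the distance. The rise of 1.78 ± 0.17 (limma adjusted p = 0.000135) was larger than in Col-0 by 1.26 ± 0.24 (limma adjusted p = 0.0261). That difference was lost without Col-0 mock replicate 2 (adjusted p = 0.113, range over alternatives 0.00572 to 0.113) and without 6 other arrays left out singly. AT2G31790 did not pass, at 7.01 and 6.83 in coi1-2 MeJA and 6.19 and 6.34 in coi1-2 mock. AOP3 was at 3.74 and 4.02 in coi1-2 MeJA and 4.02 and 3.92 in coi1-2 mock. GSTU20 also rose in ein3 eil1, by 1.02 ± 0.17 (limma adjusted p = 0.00459). The coi1-2 response of GSTU20 minus that of ein3 eil1, 0.75 ± 0.24, did not pass (limma adjusted p = 0.315). The list's median was 1.21 in coi1-2, 0.06 in Col-0 and 0.42 in ein3 eil1.

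Sulfate assimilation, which feeds cysteine, glutathione and glucosinolates, had 3 measured members of 15, and 2 rose in coi1-2, where 1.55% of all features rose. APS3, an ATP sulfurylase, was at 7.46 and 7.62 in coi1-2 MeJA, against 6.23 and 6.33 in coi1-2 mock, a rise of 1.26 ± 0.14 (limma adjusted p = 0.0003). SIR, the sulfite reductase, was at 10.15 and 10.29 in coi1-2 MeJA, against 9.20 and 9.22 in coi1-2 mock, a rise of 1.01 ± 0.14 (limma adjusted p = 0.00122). Treated and mock arrays were apart in both genes, and the responses differed from those of Col-0 by -0.05 ± 0.20 (APS3) and 0.15 ± 0.19 (SIR). The list's median was 1.01 in coi1-2 and 0.85 in Col-0.

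The genes that fell most in coi1-2 were, with the exception of XTH19, at higher levels in coi1-2 mock than in Col-0 mock, and MeJA brought them down. These values share the coi1-2 mock arrays with the MeJA contrast and are given side by side. ATPMEPCRB, a pectin methylesterase of the cell wall, was at 5.08 and 5.23 in coi1-2 MeJA, against 7.28 and 7.55 in coi1-2 mock. In Col-0 it was at 3.63 and 3.40 after MeJA and 3.88 and 4.03 after mock, below every coi1-2 array. These Col-0 mock levels lay near the lower quartiles of their arrays (3.86 and 3.82), where little room is left for a fall. The coi1-2 fall was 4.80-fold (log2 change -2.26 ± 0.15, limma adjusted p = 6.65e-06), and the response differed from that of Col-0 by -1.82 ± 0.21 (limma adjusted p = 0.00107).

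HIS1-3, a linker histone that drought and abscisic acid induce, was at 4.25 and 4.22 in coi1-2 MeJA, against 6.30 and 6.32 in coi1-2 mock. In Col-0 it was at 3.75 and 3.88 after MeJA and 4.09 and 4.21 after mock, and the treated coi1-2 arrays lay just above Col-0 mock. The fall was 4.21-fold (log2 change -2.08 ± 0.15, limma adjusted p = 1.2e-05). The difference to Col-0 was -1.74 ± 0.21 (limma adjusted p = 0.00157). HIS1-3 also fell in ein3 eil1 (log2 change -1.44 ± 0.15, limma adjusted p = 0.000216). The difference to that genotype, -0.63 ± 0.21, did not pass (limma adjusted p = 0.33). WRKY53, a transcription factor of leaf senescence and defence, was at 3.5 and 3.87 in coi1-2 MeJA, against 5.47 and 5.30 in coi1-2 mock. Its Col-0 levels were 3.47 and 3.24 after MeJA and 3.82 and 3.67 after mock, which the treated coi1-2 arrays overlapped. Both Col-0 mock levels were below the lower quartiles of their arrays (3.86 and 3.82), where little room is left for a fall. The change in coi1-2 was -1.70 ± 0.15 (limma adjusted p = 6.97e-05) and differed from Col-0 by -1.31 ± 0.21 (limma adjusted p = 0.00955) and from ein3 eil1 by -1.35 ± 0.21 (limma adjusted p = 0.0182). The difference to Col-0 was lost without Col-0 mock replicate 2 (adjusted p = 0.0506, range over alternatives 0.00203 to 0.0506), and that to ein3 eil1 when any 1 of 4 arrays was left out (up to 0.128 without ein3 eil1 mock replicate 1, range 0.00341 to 0.128).

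PRX52, a class III peroxidase of lignification, was at 6.0 and 6.01 in coi1-2 MeJA, against 7.89 and 8.0 in coi1-2 mock. The treated coi1-2 values stood beside Col-0 MeJA at 5.97 and 5.87, whereas Col-0 mock was at 6.64 and 6.55. PRX52 fell by 1.94 on the log2 scale (SE 0.27, limma adjusted p = 0.00133), and the difference to Col-0 was -1.27 ± 0.37, which did not pass (limma adjusted p = 0.167). In ein3 eil1 PRX52 fell too (log2 change -1.51 ± 0.27, limma adjusted p = 0.00636), and the difference of -0.43 ± 0.37 did not pass. XTH19, a xyloglucan endotransglucosylase that remodels the cell wall, had nearly the same levels in coi1-2 and Col-0. It was at 5.66 and 5.51 in coi1-2 MeJA and 7.32 and 7.49 in coi1-2 mock, against 5.59 and 5.4 in Col-0 MeJA and 7.18 and 7.55 in Col-0 mock. The coi1-2 change was -1.82 ± 0.30 (limma adjusted p = 0.0045), and its call was lost without coi1-2 MeJA replicate 2 (adjusted p = 0.056, range over alternatives 3.91e-05 to 0.056) and without coi1-2 mock replicate 2.

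The other named genes among the 12 with the largest falls carry locus codes only. AT5G42830 was at 5.01 and 5.08 in coi1-2 MeJA, against 7.10 and 7.59 in coi1-2 mock, and its Col-0 arrays lay between 4.36 and 4.68. AT1G65500 was at 5.82 and 6.17 in coi1-2 MeJA, against 8.18 and 8.23 in coi1-2 mock, and its Col-0 arrays lay between 4.11 and 5.16. AT1G26380 was at 6.22 and 6.46 in coi1-2 MeJA, against 7.82 and 8.24 in coi1-2 mock, and its Col-0 arrays lay between 3.94 and 4.21. In these genes all coi1-2 arrays were above all Col-0 arrays, and MeJA lowered coi1-2 only part of the way. The log2 changes were -2.30 (AT5G42830), -2.21 (AT1G65500), -1.97 (AT2G43620), -1.78 (AT1G72060), -1.74 (AT2G44370), -1.72 (AT1G26420) and -1.69 (AT1G26380), with limma adjusted p-values up to 0.000546. The calls of these 7 genes in coi1-2 held under every alternative that was run on them. Some also fell in Col-0: AT1G72060 by 1.90, AT2G43620 by 1.34, AT1G65500 by 0.84 and AT2G44370 by 0.55 (limma adjusted p up to 0.0494). The differences to Col-0 of AT1G72060 (0.12 ± 0.29) and AT2G43620 (-0.63 ± 0.32) did not pass.

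**Figure D4:**
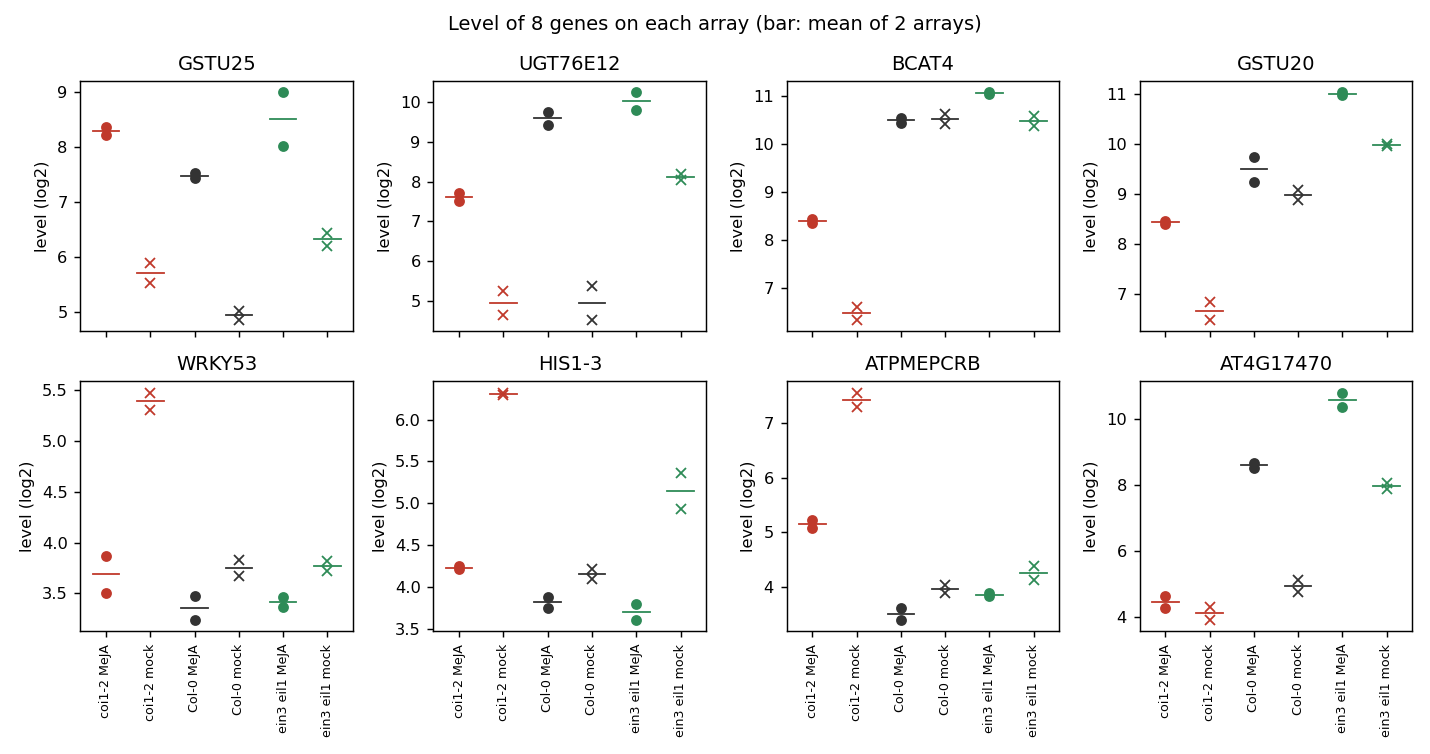
Level (log2) of 8 genes on each of the 12 arrays, by genotype and treatment; circles are MeJA, crosses mock, and the bar is the mean of 2 arrays. GSTU25 rises in coi1-2 and Col-0, BCAT4 and GSTU20 rise from a low coi1-2 mock level, WRKY53, HIS1-3 and ATPMEPCRB peak in coi1-2 mock, and AT4G17470 stays low in coi1-2.

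Auxin genes went both ways: of 4 measured, 1 rose and 2 fell in coi1-2 (1.55% and 1.01% over all features). GH3.3, which conjugates auxin to amino acids, was at 8.22 and 8.45 in coi1-2 MeJA, against 7.00 and 7.24 in coi1-2 mock, a rise of 1.21 ± 0.17 (limma adjusted p = 0.00157). The Col-0 arrays lay between 6.85 and 7.07, and the difference in response of 1.09 ± 0.24 did not pass (limma adjusted p = 0.0512). WES1, a relative that also conjugates auxin, was at 8.51 and 8.38 in coi1-2 MeJA, against 9.33 and 9.34 in coi1-2 mock. GH3.17, which conjugates auxin to glutamate, was at 6.30 and 6.08 in coi1-2 MeJA, against 6.6 and 7.08 in coi1-2 mock. In ein3 eil1 the changes were -1.38 (WES1) and -1.25 (GH3.17), with limma adjusted p-values of 0.00103 and 0.000774. In Col-0 they were -0.55, which did not pass, and -0.61 (limma adjusted p = 0.0335). In coi1-2 WES1 and GH3.17 fell by 0.89 and 0.65 on the log2 scale (limma adjusted p = 0.019 and 0.0493). The GH3.17 call passed narrowly and was lost in 12 of 21 alternatives. Among them were the fit of the contrast's own arrays, the replicate block and another variance model. The rest were 9 arrays left out singly, which included arrays of Col-0 and ein3 eil1. Both falls were lost without coi1-2 MeJA replicate 1, coi1-2 MeJA replicate 2 or coi1-2 mock replicate 2, when 0 of the 4 measured auxin genes fell, and that of WES1 also without coi1-2 mock replicate 1.

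Cell wall families moved in few members. Of 19 measured expansins, proteins that loosen walls during growth, 2 fell in coi1-2 and 0 rose, and of 10 xyloglucan endotransglucosylases 2 fell and 0 rose, where 1.01% of all features fell and 1.55% rose. EXPA4 was at 7.61 and 7.85 in coi1-2 MeJA, against 8.67 and 8.84 in coi1-2 mock (change -1.03 ± 0.15, limma adjusted p = 0.00169). EXLA2 fell by 0.79 (limma adjusted p = 0.0477) and XTH26 by 0.94 (limma adjusted p = 0.00634) on the log2 scale. Leaving out any 1 of the 4 coi1-2 arrays ended the call of EXLA2, and 3 of them ended that of XTH26. Expansins then numbered 1 that fell, and the other family 0 without coi1-2 MeJA replicate 2. The medians were -0.06 and -0.29 in coi1-2, against -0.18 and -0.70 in Col-0. Of 7 measured class III peroxidases PRX52 was the single gene that fell, and 0 rose, though 1 was called higher in 7 alternatives.

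Among root markers, 3 of 15 were measured and PYK10, a beta-glucosidase of endoplasmic reticulum bodies that is abundant in roots, was the 1 that rose (1.55% of all features). It was at 12.07 and 11.89 in coi1-2 MeJA, against 11.24 and 11.23 in coi1-2 mock, a rise of 0.74 ± 0.13 (limma adjusted p = 0.00669) that was lost without coi1-2 MeJA replicate 1 (adjusted p = 0.113, range over alternatives 0.000153 to 0.113). It was also lost without coi1-2 mock replicate 2. The root hair expansins EXPA7 and EXPA18 did not pass, with changes of 0.39 ± 0.16 and 0.21 ± 0.26. Summed over the 3 markers, levels were 25.39 and 25.65 in coi1-2 MeJA, against 24.00 and 24.36 in coi1-2 mock, while Col-0 had 26.89 and 26.83 after MeJA and 27.16 and 26.94 after mock. In whole seedlings, a different number of root cells and a different amount of RNA per root cell cannot be told apart. The part of this shift in the other results was not tested.

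Other lists gave little in coi1-2. GRX480, a glutaredoxin induced by salicylate and known to bind TGA factors, was at 6.50 and 6.13 in coi1-2 MeJA, against 5.13 and 5.19 in coi1-2 mock. This rise of 1.15 ± 0.27 passed narrowly (limma adjusted p = 0.0425) and was lost when any 1 coi1-2 array was left out (up to 0.369, range over alternatives 0.00413 to 0.369). The same happened without either Col-0 MeJA array. STZ, a zinc finger repressor of stress responses, was at 8.55 and 8.32 in coi1-2 MeJA, against 8.79 and 8.56 in coi1-2 mock, and did not pass. Its response was smaller than in Col-0, with a difference of -1.96 ± 0.35 (limma adjusted p = 0.0157), a call lost when any 1 of 4 arrays was left out (up to adjusted p = 0.103 without coi1-2 MeJA replicate 2, range over alternatives 0.00239 to 0.103). CML38, a calmodulin-like protein of the same early stress list, was at 8.43 and 8.39 in coi1-2 MeJA and 8.01 and 8.42 in coi1-2 mock. No anthocyanin gene (0 of 4), calmodulin-like gene (0 of 8) or heat shock gene (0 of 2) passed in coi1-2, whereas 1 calmodulin-like gene and 1 heat shock gene were called lower in the fit of the contrast's own arrays and without either ein3 eil1 MeJA array. The clock gene GI had a difference of -0.14 ± 0.14. Of the 7 measured WRKY factors WRKY53 alone passed, though 2 or 3 were called lower in 8 alternatives (2 after quantile normalization and 3 with array weights). WRKY6 was at 8.95 and 8.87 in coi1-2 MeJA and 9.22 and 9.03 in coi1-2 mock.

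A further set of genes rose in coi1-2 from a mock level below that of Col-0. SBT4.12, a subtilisin-like protease, was at 8.99 and 9.06 in coi1-2 MeJA, against 8.02 and 7.91 in coi1-2 mock, and its Col-0 arrays lay between 9.48 and 9.73. Its rise of 1.06 ± 0.12 (limma adjusted p = 0.000314) was larger than in Col-0 by 0.86 ± 0.17 (limma adjusted p = 0.0251) and larger than in ein3 eil1 by 1.18 ± 0.17 (limma adjusted p = 0.00926). The difference to Col-0 was lost when any 1 of 7 arrays was left out (up to adjusted p = 0.134 without coi1-2 MeJA replicate 2, range over alternatives 0.0128 to 0.134). That to ein3 eil1 was lost without either coi1-2 MeJA array (up to 0.0567, range 0.00244 to 0.0567). JAL33, a jacalin-type lectin, was at 11.01 and 10.75 in coi1-2 MeJA, against 10.17 and 10.21 in coi1-2 mock, a rise of 0.69 ± 0.14 (limma adjusted p = 0.0167). Unlike SBT4.12, JAL33 also rose in Col-0, by 0.71 ± 0.14 (limma adjusted p = 0.00607). Its coi1-2 and Col-0 responses differed by -0.02 ± 0.19. The coi1-2 response was larger than in ein3 eil1 by 1.07 ± 0.19 (limma adjusted p = 0.0378), where the arrays read 11.94 and 11.69 after MeJA and 12.11 and 12.28 after mock. The JAL33 rise was lost when any 1 of 3 coi1-2 arrays was left out (up to adjusted p = 0.22 without coi1-2 MeJA replicate 1, range over alternatives 0.00119 to 0.22). Its difference to ein3 eil1 was lost in 13 of 21 alternatives (up to 0.201, range 0.00306 to 0.201), among them centring on medians (0.0823), the fit of the contrast's own arrays (0.076) and 11 arrays left out singly.

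Some genes that responded together were neighbours on the chromosome, in the gene order of the TAIR10.1 assembly. Of 5909 neighbouring pairs with both genes measured, 142 held a gene that rose in coi1-2, and in 9 of these both rose. GSTU25 rose with GSTU26 (2.58 and 1.05), UGT73B4 with UGT73B5 (2.19 and 1.88), AER with AT5G16980 (0.89 and 2.39), SUFE2 with AT1G67800 (1.89 and 0.51) and JAL33 with JAL34 (0.69 and 0.87). By their gene names, the first, the second and the last of these pairs are of 1 family each. AT5G16980 and AT1G67800 carry locus codes only, so their families are not given here. All the named genes given here with levels, PDF1.2b apart, rest on a probe set of the type designed to match a single transcript. Of 111 pairs that held a gene that fell, 3 fell together, and AT1G65490, AT1G65500 and AT1G65510 form a row, with changes of -1.42, -2.21 and -0.76. No test was run on these counts, since neighbours can share sequence and regulation.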

How the data were processed

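Biotin-labelled target was made from 100 ng of total RNA per whole-seedling sample and hybridised to ATH1 arrays, per the labels' protocols. Per the deposited table, 22810 probe sets have a log2 value on each of 12 arrays, 2 in each of 6 groups. Affymetrix Expression Console, RMA and Partek are named in the submitters' processing notes; versions and roles are not given in the sources used here. Since RMA makes array distributions alike, a shift of most transcripts in 1 direction is lost. The labels do not say whether replicates came from separate cultures, so the p-values reflect the spread between the deposited samples, possibly a technical one. With 2 arrays a group, their number limits the precision.

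The 64 control probe sets were left out. Of the other 22746, 13513 had 1 gene name in the platform annotation, 503 had several and 8730 had none. Names were updated through the TAIR10.1 gene table, which matched 13436 and was used for names and gene order only. Probe sets of 1 gene were averaged (147 genes), which gave 13355 named genes, 11798 of them by locus code only, and 9233 unnamed features. No coordinates were used.

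R 4.3.3 with limma 3.58.1 fitted 6 group means to the 12 arrays (lmFit and eBayes, 6 residual degrees of freedom, tested on simulated data). Contrasts gave the MeJA response of coi1-2 and its difference from the responses of Col-0 and ein3 eil1. Benjamini-Hochberg adjustment ran over all 22588 features, with a threshold of 0.05, and all adjusted p-values are limma's. Values given as ± are standard errors of the fit, with a spread shared by all 6 groups. The alternatives were other normalizations, filters on low mean level, other variance models, a replicate block, other ways to join probe sets, stricter thresholds and each array left out in turn.

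Genes were named by a rule: the 12 named genes with the largest rise and the 12 with the largest fall in coi1-2, 6 in each direction for each difference between genotypes among genes called in coi1-2, up to 6 called and up to 2 other members of each list, and EIN3. The remaining called UDP-glycosyltransferases, UGT72E1 (not called in coi1-2), AT1G60730 and the neighbouring genes complete counts and were named after their values were seen. The gene set, the lists and the tests were chosen with earlier results of these data known. Promoter sequences were not analysed here. Tables were read in Python 3.11.15 (pandas 2.3.3) and plotted with matplotlib 3.10.9.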

Additional observations from a re-analysis of the deposited data

Results flagged for a closer look

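The results below stand out because the response to MeJA differed between genotypes by the interaction term of the limma fit (adjusted p under 0.05). Each group had 2 arrays, too few to test single arrays as outliers.

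Against Col-0, 264 features differed. Differences are the coi1-2 response minus the Col-0 response, in log2 units. Among genes that rose more in coi1-2, or fell less, they were 1.96 (BCAT4), 1.82 (AT5G11420), 1.26 (GSTU20), 1.19 (AT3G62930), 1.01 (AT2G47540), 0.94 (AT2G28790) and 0.86 (SBT4.12). AT5G11420 fell in both genotypes, by 0.57 in coi1-2 and 2.39 in Col-0. Its levels were 8.11 and 8.35 in coi1-2 MeJA and 8.75 and 8.84 in coi1-2 mock, against 7.36 and 7.31 in Col-0 MeJA and 9.65 and 9.79 in Col-0 mock.

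Among genes that rose in coi1-2, but less than in Col-0, the differences were -2.26 (AT4G24350), -2.03 (AT1G09500), -1.98 (UGT76E12), -1.67 (AT2G38240), -1.60 (AT1G75960) and -1.27 (GSTU26). Among genes that did not pass in coi1-2, they were -3.30 (AT4G17470), -3.23 (AT1G10585), -1.96 (STZ) and -1.08 (OPCL1). Among genes that fell in coi1-2, they were -2.27 (AT5G42830), -1.84 (AT5G24760), -1.82 (ATPMEPCRB), -1.74 (HIS1-3), -1.65 (AT1G26380), -1.56 (AT1G26420), -1.37 (AT1G65500), -1.31 (WRKY53) and -1.19 (AT2G44370). AT5G24760 was at 6.07 and 5.70 in coi1-2 MeJA and 7.02 and 7.05 in coi1-2 mock, against 6.35 and 5.92 in Col-0 MeJA and 5.45 and 5.43 in Col-0 mock.

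Against ein3 eil1, 100 features differed. The coi1-2 response minus that of ein3 eil1 was 1.49 for AT1G61590, 1.34 for BCAT4, 1.26 for EXPA7, 1.18 for SBT4.12, 1.15 for AT4G22610, 1.12 for AT5G26260 and 1.07 for JAL33. It was -2.35 for AT1G65500, -2.29 for AT5G42830, -2.26 for AT1G75960, -2.24 for AT4G17470, -1.93 for AT2G43620, -1.87 for ATPMEPCRB, -1.80 for AT1G26380, -1.48 for AT1G26420, -1.35 for WRKY53 and -1.27 for AT2G44370. AT1G75960 was at 4.37 and 4.28 in coi1-2 MeJA and 3.56 and 3.63 in coi1-2 mock, against 7.80 and 7.59 in ein3 eil1 MeJA and 4.65 and 4.77 in ein3 eil1 mock.

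Most of these differences did not hold when single arrays were left out. Of the 26 named differences to Col-0, 15 were no longer called without at least 1 array, and of the 17 to ein3 eil1, 13. That of AT1G26420 to ein3 eil1 was lost in 12 of 20 alternatives (adjusted p from 0.0146 to 0.212), among them quantile normalization (0.051) and the replicate block (0.0534), and that of EXPA7 in 10 of 21 (0.0224 to 0.223).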

How the results depend on the processing

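No result changed sign under any alternative that was run where it was called. The MeJA response of coi1-2 gave 578 calls, and 239 to 730 with 1 array left out (143 to 419 rises, 96 to 311 falls), the lowest without coi1-2 MeJA replicate 1. The difference to Col-0 (264) ranged from 107 to 387 and that to ein3 eil1 (100) from 16 to 181. At an adjusted p under 0.01 there were 296 calls in coi1-2 (189 rises, 107 falls), 103 differences to Col-0 and 29 to ein3 eil1. Asking also for a 2-fold change left 249 calls in coi1-2 (157 rises, 92 falls). Above the 50th percentile of mean level, 46 differences to ein3 eil1 were called. These alternatives test fewer samples or features, or ask for more, by construction. The highest coi1-2 count with 1 array left out came without either ein3 eil1 MeJA array, which enters the shared spread but not the contrast. With the replicate block the counts were 570 (340 rises, 230 falls), 280 and 89. The replicate numbers were not used as pairs in the main fit. Deviations of same-numbered arrays correlated at -0.03 between coi1-2 MeJA and coi1-2 mock, and from -0.22 to 0.23 over all group pairs. With 1 such deviation per group, these values cannot show whether samples were paired. Quantile normalization gave 594 calls, centring on medians 630 and array weights 739, and the median of all features stayed within 0.03 of 0. The share of promoters with given motifs was planned and not run. In 14 of the 59 named and called genes a coi1-2 group lay below its array medians, where array signal limits precision. Low levels in the Col-0 and ein3 eil1 groups were not counted.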
